A study of Mus musculus with 24 samples.

Results

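Neutrophil recruitment signals were followed as 10 genes of the 53465 in the count table of BURP tumors: the ligand genes Cxcl1, Cxcl2, Cxcl3, Cxcl5, Csf3 and Csf2, the receptor genes Csf3r, Cxcr2 and Trem1, and the cytokine gene Il17a. They were selected on the measured RNA levels of neutrophil genes, which earlier results of these data had nearly absent in BURP-19NE, and the question was whether the genes of the attracting ligands were absent there too. The values of BURP-19NE beside the basal/squamous (Ba/Sq) tumors are therefore given as a description without a test. Tests were made only for BURP-16SR, among the Ba/Sq lines and between the sexes.

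BURP lines are bladder carcinomas started in male and female C57BL/6NTac mice that drank 0.1% of the nitrosamine BBN from 8 weeks of age for up to 36 weeks, and were then passed under the skin of hosts of the same strain and sex with an intact immune system. RNA of 24 tumors was sequenced, 3 from each of 8 lines. The male Ba/Sq lines are BURP-12BaSq, BURP-18BaSq and BURP-17BaSq, and the female Ba/Sq lines are BURP-25BaSq, BURP-21BaSq and BURP-24BaSq. BURP-16SR is stroma-rich and BURP-19NE is neuroendocrine-like, and both are male. Each line came from 1 donor tumor, so that a subtype held by 1 line cannot be told apart from that line, and p-values over tumors measure the spread among tumors that share a donor within a line. Levels are given as CPM, which scales the counts of each tumor to a common library total after TMM scaling.

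Neutrophils are drawn out of the blood by chemokines of the CXC family that carry a glutamate-leucine-arginine motif, which bind the receptor CXCR2 on the neutrophil surface. Granulocyte colony-stimulating factor (Csf3) and granulocyte-macrophage colony-stimulating factor (Csf2) drive the making and the survival of granulocytes, and interleukin 17A induces the chemokines and Csf3 in epithelial and stromal cells. TREM1 is a surface receptor of neutrophils and monocytes that amplifies their inflammatory response.

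The totals ran from 9295708 to 25370320 counts a tumor, and 3 counts, used as the floor of detection, were worth 0.110 to 1.28 CPM. Such floors and the intervals given below cover counting error only. The check of the lines by Krt5, a basal keratin, gave 2946 to 6214 CPM in the Ba/Sq tumors, at most 0.343 CPM in BURP-16SR and at most 0.0425 CPM in BURP-19NE, and Vim, a mesenchymal filament gene, reached 1448 to 1587 CPM in BURP-16SR. Both libraries that stand apart were of BURP-25BaSq. In C102-M30 the ribosomal RNA gene CT010467.1 took 61.9% of the counts (95% Wilson interval 61.8687 to 61.9296) and left 3725742 on other genes, where the highest share in another tumor was 1.85%. C102-M1 correlated on average at r = 0.97 with the 3 BURP-21BaSq tumors and at r = 0.89 with the other 2 of its own line over 21383 genes, so its label is in doubt.

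Cxcl1, Cxcl2, Cxcl3 and Cxcl5 lie close together on chromosome 5 of GRCm38, Cxcl5 from 90759360 to 90761624, Cxcl3 from 90786103 to 90789600, Cxcl1 from 90891241 to 90893115 and Cxcl2 from 90903871 to 90905938, all on the plus strand. Csf2 lies on chromosome 11 from 54247271 to 54249667 on the minus strand. The 120 bases upstream of the RefSeq start (GRCm38.p6) are shown for Cxcl1, Cxcl2 and Cxcl3, which were low in BURP-19NE. They are also shown for Csf2, which differed most in BURP-16SR. RefSeq windows were at hand for 8 of the 10 genes, and not for Cxcl5 and Csf3. Cxcl5 was low in BURP-19NE too, but its promoter was not searched. Capitals mark matches, on either strand and with overlaps allowed, to GGGNNTTTCC, a form of the element bound by NF-kB factors. The coordinates are chr5:90891125-90891244 for Cxcl1, chr5:90903779-90903898 for Cxcl2 and chr5:90785981-90786100 for Cxcl3 on the plus strand, and chr11:54249900-54250019 for Csf2 on the minus strand. The RefSeq start of Csf2 lies upstream of 54249667, where the annotated gene begins on that strand. The bases just before that annotated start were therefore not searched, and the Csf2 window is not like those of the chemokine genes.
Cxcl1: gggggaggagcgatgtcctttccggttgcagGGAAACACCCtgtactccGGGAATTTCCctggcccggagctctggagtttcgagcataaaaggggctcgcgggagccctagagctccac
Cxcl2: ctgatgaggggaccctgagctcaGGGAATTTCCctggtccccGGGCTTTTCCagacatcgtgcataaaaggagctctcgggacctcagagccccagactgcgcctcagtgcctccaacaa
Cxcl3: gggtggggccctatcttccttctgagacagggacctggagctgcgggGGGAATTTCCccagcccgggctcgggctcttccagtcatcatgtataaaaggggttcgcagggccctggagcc
Csf2: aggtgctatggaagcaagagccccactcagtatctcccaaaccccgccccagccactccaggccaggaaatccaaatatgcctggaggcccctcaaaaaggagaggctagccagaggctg
The letters GGGAATTTCC stood in all 3 chemokine windows, beginning 71 bases before the start in Cxcl1, 97 in Cxcl2 and 73 in Cxcl3. Cxcl1 held another match on the minus strand beginning 89 bases before the start, and Cxcl2 held GGGCTTTTCC at 78. The motif was in 3 of the 8 windows, searched over 250 bases before and 50 after the start, and in 535 of the 32851 windows of that length over all promoters (1.63%). The matches describe letters and carry no measure of binding.

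The 4 chemokine genes were the most abundant members in the Ba/Sq tumors per length of exon. Mean levels over the 18 tumors were 9.47 CPM per kb for Cxcl5, 5.04 for Cxcl1, 4.05 for Cxcl2 and 3.74 for Cxcl3, above Csf3r at 1.95, Cxcr2 at 0.605, Csf3 at 0.418, Trem1 at 0.379, Csf2 at 0.140 and Il17a at 0.0134. The chemokine genes were thus higher per length than Cxcr2, the gene of their receptor. Near-identical stretches of the chemokine genes could make the estimated counts divide reads among them, which was not tested.

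In BURP-19NE the 4 chemokine genes and Cxcr2 were at or near 0, Trem1 had few counts as well, and Csf3r kept a readable level. Of the 8 members that passed the filter on low counts, 5 lay lower in all 3 BURP-19NE tumors than in all 18 Ba/Sq tumors, the 4 chemokine genes and Cxcr2, where 8.14% of 20995 genes did so. This contrast chose the genes. In bulk RNA, fewer cells of a type and less RNA per cell cannot be told apart.

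Cxcl1, which encodes the chemokine known as KC, had 12, 3 and 8 counts in the BURP-19NE tumors, which is 0.509, 0.158 and 0.363 CPM. The Ba/Sq tumors ranged from 2.13 to 20.4 CPM with a median of 8.60. The groups did not overlap, and Cxcl1 was 28.4-fold lower over pooled counts (95% interval 18.9 to 44.9), with a log2 difference of -4.74 ± 0.76 (SE). Cxcl2, the gene of MIP-2, had 3, 4 and 2 counts in BURP-19NE, at most 0.210 CPM, against 2.24 to 23.6 CPM with a median of 7.44 in the Ba/Sq tumors. It was 60.7-fold lower over pooled counts (95% interval 31.9 to 133; log2 difference -5.83 ± 0.83, SE), and again no tumor overlapped.

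Cxcl3 had 1 count over the 3 BURP-19NE tumors and Cxcl5 had 3, all of them in tumor C80-M30. Cxcl5, whose product LIX is made by epithelial cells, ran from 3.66 to 55.2 CPM with a median of 14.9 in the Ba/Sq tumors, and its pooled ratio was 362-fold lower (95% interval 124 to 1756). Its log2 difference was -8.38 ± 1.24 (SE), and -11.42 without C80-M30, a fitted value against tumors at 0 counts that is no bound. Cxcl3 ran from 0.132 to 44.4 CPM with a median of 6.84, and its pooled ratio was 860-fold lower with an interval of 154 to 33970, since 1 count sets it. The lowest Ba/Sq tumor for Cxcl3, C102-M3 of BURP-25BaSq, held 3 counts, so that its separation from the 1 count of BURP-19NE was not detectable at this depth.

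The growth factor genes were low in most tumors. Csf3 had 0 counts in all 3 BURP-19NE tumors and 0 to 1.76 CPM with a median of 0.472 in the Ba/Sq tumors, at least 4.41-fold lower in BURP-19NE when 3 counts per library stand for 0. Csf2 also had 0 counts in BURP-19NE, but the Ba/Sq tumors had 0 to 4 counts each, so no fold is given. Il17a had 0 counts in all BURP-19NE and BURP-16SR tumors and in 15 of the 18 Ba/Sq tumors. Its highest value was 5 counts in C41-M3 of BURP-12BaSq, and it passed the filter in no comparison.

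**Figure D1:**
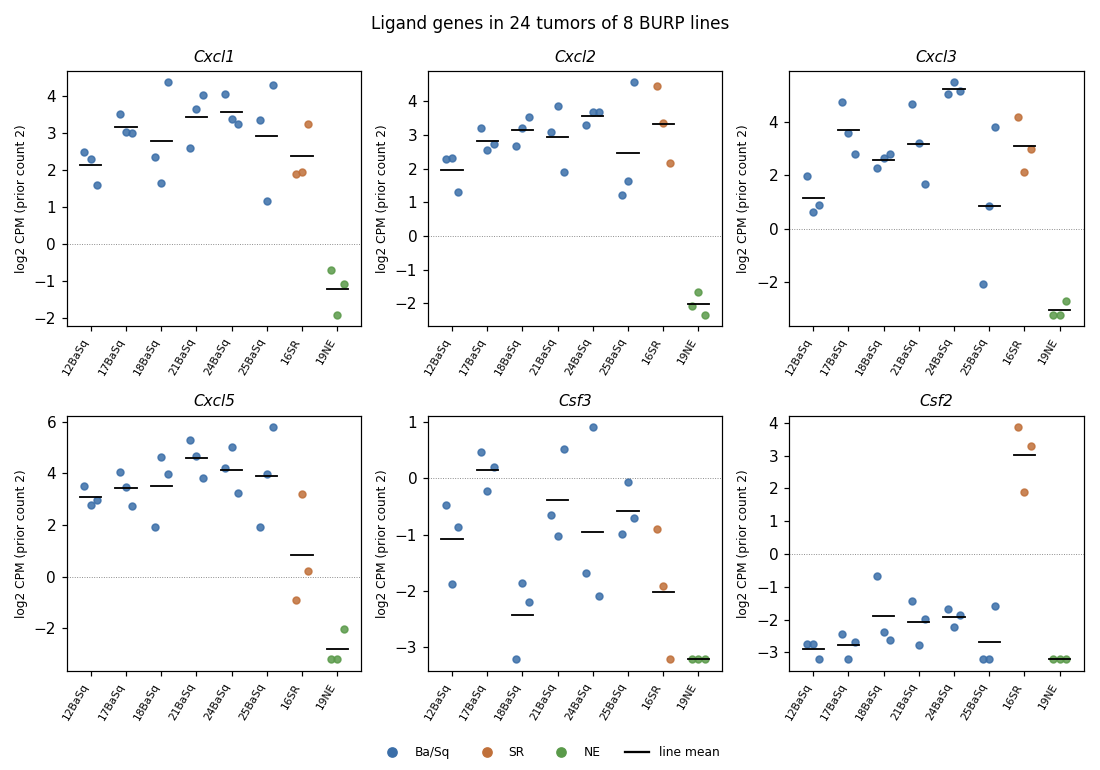
Levels of the 6 ligand genes as log2 CPM (prior count of 2; vertical axis) in the 24 tumors by BURP line (horizontal axis), 1 point per tumor and a bar for the mean of the 3 tumors of a line. The BURP-19NE points lie lowest for Cxcl1, Cxcl2, Cxcl3 and Cxcl5, and the 3 BURP-16SR points, from 3.60 to 14.5 CPM, lie highest for Csf2.

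Of the receptors, Cxcr2 had 1, 0 and 0 counts in BURP-19NE and 0.0440 to 5.92 CPM with a median of 1.60 in the Ba/Sq tumors. Its pooled ratio was 122-fold lower (95% interval 21.8 to 4813), but C102-M3 also held 1 count, and the order of these values was not detectable at this depth. Csf3r, the receptor of granulocyte colony-stimulating factor, differed from Cxcr2 in remaining readable in BURP-19NE, with 52, 29 and 48 counts or 2.21, 1.53 and 2.18 CPM. These values overlapped the Ba/Sq range of 0.792 to 20.7 CPM, and Csf3r was 3.80-fold lower over pooled counts (95% interval 3.19 to 4.57; log2 difference -1.83 ± 0.69, SE). Trem1 had 2, 2 and 7 counts, up to 0.318 CPM, and overlapped the Ba/Sq range of 0.131 to 2.46 CPM, with a pooled level 6.91-fold lower (95% interval 3.82 to 13.9).

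**Figure D2:**
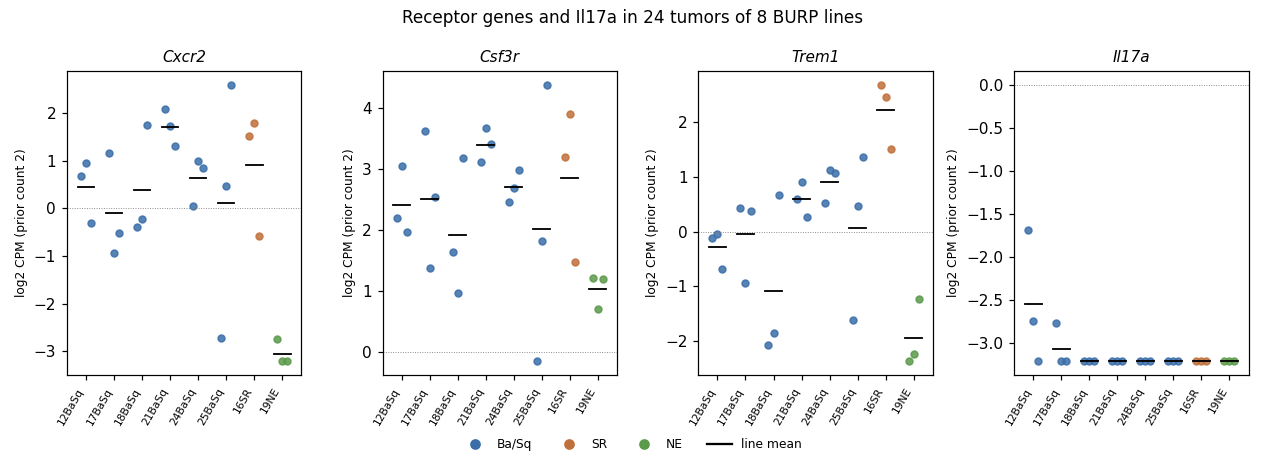
Levels of Cxcr2, Csf3r, Trem1 and Il17a as log2 CPM (prior count of 2; vertical axis) in the 24 tumors by BURP line (horizontal axis), 1 point per tumor and a bar for the line mean. Csf3r in BURP-19NE lies at 1.53 to 2.21 CPM beside Cxcr2 at 0 to 0.0425 CPM, and Trem1 is highest in BURP-16SR at 2.74 to 6.34 CPM.

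Other genes of neutrophils were also low in BURP-19NE. Of the 16 neutrophil markers, Ly6g, Elane, Mpo and Stfa2l1 had 0 counts in all 3 tumors, but these were sparse in the Ba/Sq tumors too. Ly6g, the defining surface marker in mouse, had at most 5 counts in any Ba/Sq tumor, and Elane was at 0 in 16 of the 18, Mpo in 8, Ly6g in 6 and Stfa2l1 in 4. Of the 8 markers other than Ltf that passed the filter, 2 lay below all Ba/Sq tumors, Cxcr2 and S100a9, where 8.14% of all genes did. Cxcr2 is itself a member, and its order against C102-M3, with 1 count, was not detectable. The summed level of the list without Ltf, which is also made by epithelium and outweighed the rest, was 2.58 to 5.01 CPM in BURP-19NE, 16.1 to 37.9 in BURP-16SR and 3.78 to 197 in the Ba/Sq tumors. The highest of these was C102-M30, and without C102-M1 and C102-M30 the Ba/Sq range ended at 101.5 CPM. Ltf was left out after its values were seen. The 10 macrophage markers summed to 274 to 359 CPM in BURP-19NE, inside the Ba/Sq range of 32.4 to 1136, and none of the 10 lay outside that range in all 3 tumors. The 6 basal epithelial markers lay below the Ba/Sq tumors in all 3. Of 9 tested genes for the adhesion of neutrophils to endothelium, only Icam1, which binds leukocytes, did so, near the 8.14% of all genes. The part of basal epithelium, skeletal muscle (2.05 to 536 CPM summed in BURP-19NE, 0.124 to 30.7 in the Ba/Sq tumors) and mast cells (0.526 to 30.2 and 0.0836 to 9.05) in these differences was not tested.

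The other attractants leaned lower in BURP-19NE, and the IL-17 pathway and receptor lists had genes on both sides of the Ba/Sq tumors. Ppbp, which encodes a further CXCR2 ligand and lies between Cxcl5 and Cxcl3 on chromosome 5 (90768518 to 90770063), was the most abundant gene of its list, with 18.9 to 529 CPM and a median of 125 in the Ba/Sq tumors, and had 1 to 3 counts in BURP-19NE. Of the 16 attractant genes that passed the filter, Ppbp and S100a9 lay below all Ba/Sq tumors and none above, where 8.14% of all genes lay below and 9.85% above. The median log2 difference of the list was -2.14, beside -0.14 over all genes. Among 20 genes of the IL-17 pathway and NF-kB response the median was -0.93, with Tnfaip3, Nfkbia, Zc3h12a and Il17re below all Ba/Sq tumors and Il17d above. Nfkbiz, an NF-kB cofactor induced by interleukin 17A, was at 70.8 to 80.6 CPM in BURP-19NE and 24.8 to 114 in the Ba/Sq tumors, and Rela was at 52.2 to 58.9 and 27.9 to 63.8, so that both overlapped. Of 17 other receptors found on neutrophils, Ltb4r1 and Csf2ra lay below all Ba/Sq tumors and Cxcr4 and Fpr1 above, with Fpr1 at 1.73 to 1.95 CPM against 0 to 0.989.

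In BURP-16SR the chemokine genes were present, and Csf2 and Trem1 were higher than in the Ba/Sq lines. Of 9 members tested against the 18 Ba/Sq tumors with edgeR's quasi-likelihood test and Benjamini-Hochberg adjustment over 21028 genes, Csf2 and Trem1 passed (adjusted p under 0.05 and more than 2-fold), beside 19.2% of all genes. Csf2 had 169, 46 and 139 counts in BURP-16SR, which is 14.5, 3.60 and 9.75 CPM, and at most 0.522 CPM in any Ba/Sq tumor. All 3 tumors lay above all 18, as 6.09% of the genes tested did, and the log2 difference was 6.43 ± 0.58 (SE; edgeR adjusted p = 3.273e-08). Csf2 passed the filter on low counts only in this comparison, through the BURP-16SR tumors in which it is high. Trem1 reached 6.34, 5.39 and 2.74 CPM, above the highest Ba/Sq tumor at 2.46, with a log2 difference of 2.14 ± 0.51 (SE; edgeR adjusted p = 0.004201). With counts summed per line, where BURP-16SR is 1 sample assumed to vary like the other lines, Trem1 no longer passed (edgeR adjusted p = 0.08987) and Csf2 did (edgeR adjusted p = 0.002764).

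The chemokine and receptor genes did not pass in BURP-16SR. Cxcl5 was at 0.428, 9.15 and 1.05 CPM, where 2 tumors lay below every Ba/Sq tumor and C74-MNT lay among them. Its log2 difference was -2.26 ± 0.87 (SE; edgeR adjusted p = 0.0619). It passed without C74-MNT at -4.52 (edgeR adjusted p = 0.006647) and with DESeq2 at -2.27 (DESeq2 adjusted p = 0.008346). Cxcl2 was at 21.8, 10.2 and 4.42 CPM (log2 difference 0.59 ± 0.53, SE; edgeR adjusted p = 0.4413), and the sign turned to -0.16 without the highest tumor, C73-M10. Cxcl1 had a log2 difference of -0.73 ± 0.56 and Cxcl3 of -0.32 ± 0.996, and Csf3, with 5, 2 and 0 counts, had -1.54 ± 0.98. Cxcr2 (0.32 ± 0.74) and Csf3r (0.38 ± 0.61) gave differences smaller than their standard errors, and with C74-MNT left out these were -0.11 and -0.22.

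Of the receptor genes, the shared chain Csf2rb passed in BURP-16SR and the GM-CSF subunit Csf2ra did not. Csf2rb, the shared signalling chain of the receptors for GM-CSF, interleukin 3 and interleukin 5, was at 23.9 to 84.6 CPM in BURP-16SR and 3.72 to 52.9 in the Ba/Sq tumors (log2 difference 1.70 ± 0.51, SE; edgeR adjusted p = 0.01752). In tumor P5, with 139 Csf2 counts, Csf2rb was at 23.9 CPM, inside the Ba/Sq range. Its close relative Csf2rb2, the chain of the interleukin 3 receptor, rose by 1.66 ± 0.57 on the same scale (edgeR adjusted p = 0.03766), and reads could be divided between the pair. Csf2ra, the subunit particular to GM-CSF, had 0.17 ± 0.40 (edgeR adjusted p = 0.7851). Of 7 genes of the colony stimulating factor family Csf1 and Il34, both macrophage growth factors, were higher (1.25 ± 0.44 and 2.94 ± 0.63, SE, edgeR adjusted p = 0.04154 and 0.001726). Over all genes 10.5% were higher. Csf1 was not high in every tumor, with 15.3 CPM in P5 beside a Ba/Sq median of 18.95. Il34 was at 20.9 to 27.9 CPM in BURP-16SR and at most 8.82 in the Ba/Sq tumors.

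Other attractants moved both ways in BURP-16SR. Of 16 tested, Il6, Pf4 and Cxcl12 were higher and Ppbp and Lgals3 lower, where 10.5% of all genes were higher and 8.62% lower. The median log2 difference of the list was 0.76, beside -0.03 over all genes. Ppbp fell from a Ba/Sq median of 125 CPM to 1.49 to 9.85 CPM (log2 difference -4.93 ± 1.299, SE; edgeR adjusted p = 0.008232). Of 20 genes of the IL-17 pathway and NF-kB response, Cebpd was higher and Il23a and Il17re lower. Il23a, a subunit of the cytokine that sustains IL-17 T cells, had 1 or 2 counts in each BURP-16SR tumor and a median of 2.18 CPM in the Ba/Sq tumors (log2 difference -4.25 ± 0.89, SE; edgeR adjusted p = 0.001382). Of 14 mature neutrophil genes, Mmp9 was higher and Padi4, Ltf, Asprv1 and Stfa3 lower, of which Asprv1 is also a gene of squamous epithelium. Genes of these lists outside the 4 most abundant of each were named after their values were seen.

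Markers of other cells differed together with Csf2 and Trem1 in BURP-16SR. Of 7 tested markers of IL-17 T cells, Trdc, the constant region of the T cell receptor delta chain, was at 43.2 to 231 CPM, against at most 0.931 in any Ba/Sq tumor (log2 difference 9.05 ± 0.56, SE; edgeR adjusted p = 1.123e-10). Ccr6 was also higher and Il23r lower, and Cd3e, a chain that every T cell receptor needs, had 0.42 ± 0.81 (SE; edgeR adjusted p = 0.7445). Mast cell markers were higher in 4 of 4 (11.1 to 19.9 CPM summed, 0.0836 to 9.05 in the Ba/Sq tumors). Fibroblast markers were higher in 4 of 6, endothelial markers in 2 of 5 and skeletal muscle markers in 1 of 5. Over all genes 10.5% were higher. The macrophage markers summed to 211 to 938 CPM, within the Ba/Sq range, and Cd14 alone of the 10 was higher. Basal epithelial markers were lower in 6 of 6, where 8.62% of all genes were lower. Of 10 neutrophil markers only Ltf, lower, passed, which is near that share. The part of these cells in the levels of Csf2 and Trem1 was not tested.

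**Figure D3:**
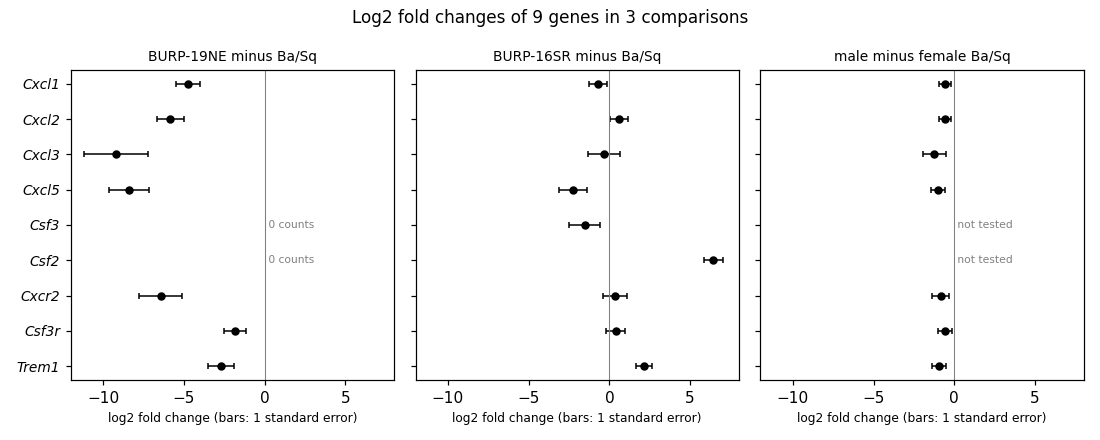
Log2 fold changes (horizontal axis, bars of 1 standard error) of 9 genes (vertical axis) for BURP-19NE minus Ba/Sq, shown without a test, for BURP-16SR minus Ba/Sq, and for male minus female Ba/Sq. Csf2 at 6.43 and Trem1 at 2.14 lie to the right in BURP-16SR, and the 4 chemokine genes lie between -9.22 and -4.74 in BURP-19NE.

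Among the 6 Ba/Sq lines Cxcl3 varied most, and no other member passed. Of 8 members tested for any difference among the lines, Cxcl3 passed (edgeR adjusted p = 0.03558, highest over lowest line 3.97 on the log2 scale), where 39.4% of 20523 genes did. BURP-24BaSq was the highest line with 32.4, 44.4 and 35.7 CPM, and its tumors lay above all others. BURP-17BaSq had 26.6, 11.9 and 6.89 CPM, BURP-21BaSq 25.4, 9.15 and 3.08 CPM, and BURP-18BaSq 4.70, 6.10 and 6.79 CPM. BURP-12BaSq was low at 3.77, 1.44 and 1.72 CPM. BURP-25BaSq split, with 0.132 CPM in C102-M3, 1.70 in C102-M30 and 13.7 in C102-M1, the tumor whose label is in doubt.

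The call of Cxcl3 rested on few tumors. It was lost in 9 of the 18 fits that left out 1 tumor, each of the 3 tumors of BURP-12BaSq and of BURP-24BaSq, C148-M3 and C149-M3 of BURP-18BaSq and P4.2 of BURP-21BaSq, with edgeR adjusted p up to 0.08878. Without C102-M1 and C102-M30 the spread was 8.11 on the log2 scale (edgeR adjusted p = 0.001233), BURP-25BaSq then being C102-M3 alone, which is assumed to vary like the tumors of the other lines. Cxcl2 (edgeR adjusted p = 0.03106) and Cxcr2 (edgeR adjusted p = 0.0378) then passed as well, so that 3 members were called.

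The other members did not pass among the lines. Cxcl1 had line means from 4.40 ± 1.35 (SD, n = 3) CPM in BURP-12BaSq to 11.97 ± 3.96 in BURP-24BaSq. The tumors of BURP-12BaSq, at most 5.51 CPM, lay below those of the Ba/Sq line next in mean, BURP-17BaSq, at 7.78 or more. They were not apart from the lines with still higher means, with C149-M3 at 3.01, C148-M3 at 4.96 and C102-M30 at 2.13 CPM. Cxcl2 ranged from 4.02 ± 1.42 in BURP-12BaSq, whose tumors lay below those of the line next in mean, BURP-17BaSq, to 11.8 ± 1.76 in BURP-24BaSq. Here too lines with still higher means overlapped BURP-12BaSq, at 2.39 to 4.90 CPM, with P5 of BURP-21BaSq at 3.63 and C102-M30 at 2.98 CPM, and C102-M3 lay below at 2.24. Cxcl5 ranged from 8.52 ± 2.37 in BURP-12BaSq to 26.3 ± 12.5 in BURP-21BaSq. BURP-12BaSq had the lowest mean of the Ba/Sq lines for all 4 chemokine genes, but with the doubtful tumor C102-M1 left out BURP-25BaSq was lower for Cxcl2 (mean 2.61 CPM) and Cxcl3 (mean 0.917 CPM). Csf3 was highest in BURP-17BaSq at 1.02 ± 0.266 and lowest in BURP-18BaSq at 0.0923 ± 0.0849. Cxcr2 ran from 1.05 ± 0.941 in BURP-17BaSq to 3.24 ± 0.865 in BURP-21BaSq, Csf3r from 4.59 ± 3.80 in BURP-18BaSq to 10.5 ± 1.99 in BURP-21BaSq, and Trem1 from 0.592 ± 0.768 in BURP-18BaSq to 1.80 ± 0.412 in BURP-24BaSq. Without C102-M1 BURP-25BaSq was the lowest line for Cxcr2 (mean 0.660 CPM) and Csf3r (mean 2.10 CPM). When C102-M1 was moved to BURP-21BaSq, Cxcl2 and Csf3r passed among the lines (edgeR adjusted p = 0.018 and 0.0478). With the labels as given they did not (edgeR adjusted p = 0.4503 and 0.765).

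Tumor C102-M3 of BURP-25BaSq was low in most of these genes. It had the lowest Cxcl2, at 2.24 CPM, and the lowest Cxcl3, at 0.132 CPM, of the 18 Ba/Sq tumors, and its Cxcl5, at 3.70 CPM, lay next to the lowest value of 3.66. It held 1 count each of Cxcr2 and S100a8, a calgranulin gene abundant in neutrophils. Cxcl1 was the exception at 9.99 CPM, above the Ba/Sq median of 8.60. Its Csf3r, at 0.792 CPM, was the lowest of all 24 tumors. Its macrophage markers were low too, with a sum of 113 CPM beside a Ba/Sq median of 300 CPM.

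Over the 6 Ba/Sq line means the level of Cxcr2 was set beside each of the 6 ligands. No relation passed in exact two-sided permutation tests adjusted over the 6. Cxcl5 came nearest with Pearson's r = 0.74 (exact permutation p = 0.09167, adjusted p = 0.55) and Spearman's rho = 0.60 (exact permutation p = 0.2417, adjusted p = 0.7139), and r was 0.67 without the 2 lines farthest from the median of Cxcl5. The other ligands gave r from 0.02 for Csf3 to 0.52 for Csf2. Without C102-M1 and C102-M30 r went from 0.23 to 0.76 for Cxcl2, from 0.21 to 0.78 for Cxcl3 and to 0.73 for Csf2 (exact permutation p = 0.04583, adjusted p = 0.1375), and again none passed after adjustment. BURP-25BaSq was then C102-M3 alone, with 1 count of Cxcr2 and 0 of Csf2. Csf2 had 0 to 4 counts in each Ba/Sq tumor, so its r is no measure of a relation between levels. In the same setting the value for Cxcl5 was r = 0.93 (exact permutation p = 0.01111, adjusted p = 0.06667), and it fell to 0.44 without BURP-25BaSq and BURP-21BaSq, so that it rested on those lines.

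**Figure D4:**
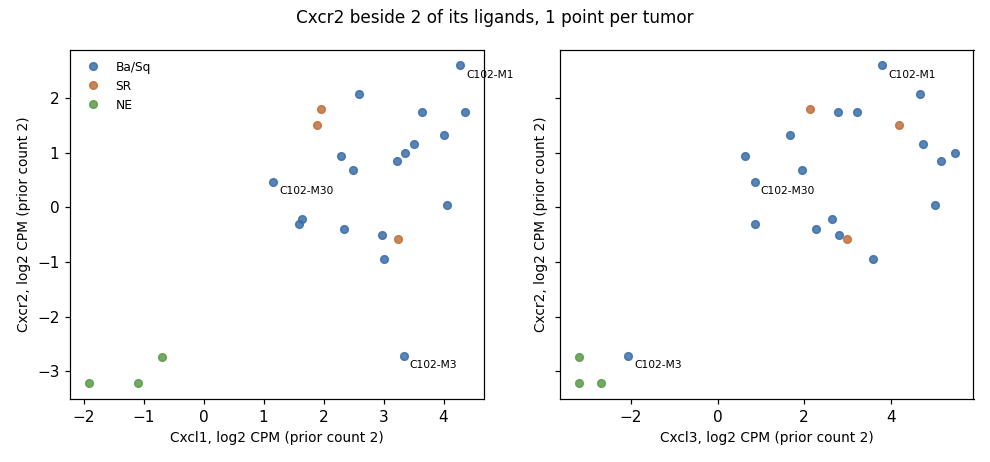
Cxcr2 (vertical axis) beside Cxcl1 and Cxcl3 (horizontal axes), all as log2 CPM with a prior count of 2, 1 point per tumor. The 3 BURP-19NE tumors lie at the low end of both genes, and C102-M3 lies with them on both axes of the Cxcl3 panel, with 1 count of Cxcr2 and 3 of Cxcl3, and apart from them on the Cxcl1 axis at 9.99 CPM.

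Between the sexes no member passed. Of 7 members tested between the 9 male and the 9 female Ba/Sq tumors, 0 were called by edgeR and 0 by DESeq2. By edgeR 2.31% of 17922 genes were called. An unadjusted edgeR p under 0.05 was found for 2 of the 7 members, beside 4135 of the 17922 genes. All 7 differences were negative, that is, lower in males. Cxcl5 had a median of 11.01 CPM in males (3.66 to 25) and 18.2 in females (3.70 to 55.2), with a log2 difference of -1.04 ± 0.43 (SE; edgeR adjusted p = 0.1528). Trem1 had a median of 0.811 in males (0.131 to 1.48) and 1.40 in females (0.220 to 2.46), with -0.95 ± 0.41 (SE; edgeR adjusted p = 0.1719). The other 5 lay between -1.24 for Cxcl3 and -0.56 for Cxcl1. With counts summed per line, Cxcl5 had an edgeR adjusted p of 0.7343.

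The genes whose levels ran most like each member over the 24 tumors were taken by Pearson's r of log2 CPM, as a description in which the low BURP-19NE tumors and library depth are shared. Cxcr2 ran with Hdc (r = 0.91), the histidine decarboxylase gene, and Csf3r (r = 0.89), and Csf3r with Mefv (r = 0.93), Fgr and Il1b, which are genes of myeloid cells. Cxcl2 was the only chemokine member with another member among its 3 nearest genes, Cxcl3 at r = 0.90. Cxcl5 ran with Prkch (r = 0.93), Mdfi and Fabp5, Cxcl3 with Slc37a1 (r = 0.92), and Cxcl1 with Stx3 (r = 0.89) and Tgfa. Trem1 ran with Acap1 (r = 0.90) and Cd300lf. Csf2 ran with Krtap17-1 (r = 0.94), with its high values in the 3 BURP-16SR tumors alone.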

How the data were processed

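RNA of 24 BURP tumors, 3 from each of 8 lines, was analysed. The authors depleted ribosomal RNA, made stranded paired-end libraries, aligned the reads with STAR 2.6.0a to GRCm38 (GENCODE M16) and deposited RSEM 1.3.1 expected counts per gene, not normalized, of which 12.5% were not whole. The submitters' processing notes also name CASAVA 1.8.2. Counts were rounded, and 99.8% of the gene identifiers were found in an annotation of GRCm38. Line came from the sample titles, and subtype and sex from the study's methods. The labels name no batch.

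The 10 members and all lists were chosen with earlier results of these data known. 1 list gene, C5, was not matched. Each comparison was fitted over all genes with edgeR 4.0.16 in R 4.3.3 (TMM, filterByExpr, glmQLFit and glmQLFTest without robust estimation), with p-values adjusted by Benjamini-Hochberg over all genes. Called genes had an adjusted p below 0.05 and changed by more than 1 on the log2 scale. The fit was tested on simulated counts drawn independently for each tumor, with changes planted only in genes with enough counts. That check does not cover tumors that share a donor or sparse genes such as Csf2 in the Ba/Sq tumors. Pooled ratios have exact 95% binomial intervals for counting error. Named were every member, the 4 genes of each list with the highest mean CPM, 4 line checks and, for members with a mean of at least 1 CPM, the 3 genes with the highest r. Alternatives were DESeq2 1.42.0, its size factors, other filters, all tumors in 1 fit, counts summed per line, and tumors or lines left out. Promoter windows came from RefSeq. The count of receptor genes called in BURP-16SR is not reported here.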

Additional observations from a re-analysis of the deposited data

How the results depend on the processing

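Csf2 in BURP-16SR passed under all alternatives that tested it, with log2 differences from 5.92 to 6.81 when 1 tumor was left out. The main filter let Csf2 in only through the BURP-16SR tumors in which it is high, so these passes are no separate support. The number of members called in BURP-16SR was 2, and 2 to 3 when 1 tumor was left out, 3 under DESeq2, with all 24 tumors in 1 fit and without BURP-18BaSq, where Cxcl5 joined, 1 with counts summed per line, and 0 under a minimum of 10 counts in every tumor, a filter that left no member. Among the Ba/Sq lines 1 member was called, 0 to 2 with 1 tumor left out, 0 under that minimum, where 1 member was tested, and 3 either without C102-M1 and C102-M30 or when C102-M1 was moved to BURP-21BaSq. In BURP-19NE 5 members lay below all Ba/Sq tumors, 5 to 6 with 1 tumor left out, and 0 under that minimum, where none was tested. The log2 difference of Cxcl3 in BURP-16SR turned to 0.14 with all 24 tumors in 1 fit and to 0.35 without BURP-24BaSq. With 1 tumor left out it ran from -1.09 to 0.04, that of Cxcl2 from -0.16 to 0.90, of Csf3r from -0.22 to 0.73 and of Cxcr2 from -0.11 to 0.69, none of which passed. The r of Cxcr2 with Cxcl1 turned to -0.09 without C102-M1 and C102-M30, and with Csf3 it was 0.00 at a prior count of 0.5. The cause of these turns was not tested.

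Over all genes, BURP-16SR gave 4029 calls, 1594 under the minimum of 10 counts and 841 with counts summed per line, and the Ba/Sq lines gave 8094 and 4451. The sexes gave 414 calls, 191 under the minimum, 768 by DESeq2, 865 without BURP-12BaSq, 1196 without BURP-17BaSq, 225 without BURP-24BaSq and 0 by edgeR with counts summed per line, where 1388 genes had an unadjusted p under 0.05. No member was called between the sexes in any of these. No paired analysis was possible because the replicate numbers only name tumors and the labels tie no tumors of different lines to 1 mouse, litter or day. Depth limits Il17a, Csf2 and Csf3, most of whose values lie at 0 to 36 counts outside BURP-16SR, and every member in C102-M30.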

Other observations

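Leukotriene B4, a lipid made from arachidonic acid, also attracts neutrophils. The list of 9 genes held those of its synthesis (Pla2g4a, Alox5, Alox5ap, Lta4h) beside other lipoxygenases, cyclooxygenases and Ltc4s, which lead to other lipids. Of the 9, Alox5, which encodes the 5-lipoxygenase that opens the leukotriene pathway, was at 13.4 to 23.9 CPM in BURP-16SR and 0.264 to 5.57 in the Ba/Sq tumors (log2 difference 3.74 ± 0.56, SE; edgeR adjusted p = 4.534e-05), and Alox12, another lipoxygenase, was lower there, where 10.5% of all genes were higher and 8.62% lower. In BURP-19NE Pla2g4a, the phospholipase that frees arachidonic acid, lay above all Ba/Sq tumors at 94.3 to 167 CPM against 7.87 to 84.6, and Alox12 lay below, where 9.85% of all genes lay above and 8.14% below. Lta4h, the hydrolase of the last step, was at 44.9 to 71.9 CPM in BURP-19NE and 33.7 to 61.8 in the Ba/Sq tumors.

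Of 9 genes for the adhesion of neutrophils to endothelium, Selp, Esam and Pecam1 were higher in BURP-16SR and none was lower, beside the same 10.5% and 8.62% of all genes. Selp, the P-selectin gene, was at 27.6 to 47.7 CPM there and 0.0828 to 32.9 in the Ba/Sq tumors (log2 difference 3.70 ± 0.96, SE; edgeR adjusted p = 0.007625). The endothelial markers summed to 160 to 257 CPM in BURP-16SR and 20.5 to 278 in the Ba/Sq tumors, and their part in these differences was not tested. Alox5, Selp and Esam were named after their values were seen.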
